A study of Mus musculus with 4 samples.

Results

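The 10 genes described here encode receptors that guide neutrophils toward chemical attractants. They were chosen by symbol as chemokine receptors (*Cxcr4*, *Cxcr2*, *Ccr1*, *Ccrl2*), formyl peptide receptors (*Fpr1*, *Fpr2*), complement receptors (*C5ar1*, *C3ar1*) and receptors for lipid attractants (*Ltb4r1*, *Ptafr*), and all 10 were among the 28585 genes listed. RNA was sequenced in bulk from 4 libraries of PMN-MDSCs (myeloid-derived suppressor cells of the polymorphonuclear kind, a neutrophil population that restrains T cells), sorted as CD11b+ Ly6G+ cells with low or no Ly6C from the spleens of mice on postnatal day 7. In 2 libraries, Dhps cko, the pups were Dhps fl/fl Lysm cre. In them *Dhps*, the gene of deoxyhypusine synthase, was floxed and targeted by a Cre expressed from the *Lysm* locus, which is active in myeloid cells other than neutrophils as well. In the other 2, Dhps flox, the pups were Dhps fl/fl littermates that carried the floxed alleles without the Cre, and all animals were on a C57BL/6J background with both sexes in use. Every library held both *Xist* and Y-linked transcripts, that is, RNA of both sexes. How many pups went into a library was not stated, nor whether the libraries of a genotype came from separate pups, so the p-values measure only the spread between these libraries, which may be technical.

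Chemoattractant receptors are G protein-coupled receptors of the cell surface. Most of them couple to inhibitory G proteins, activate phosphoinositide 3-kinase gamma and Rac GTPases at the leading edge of the cell, and are then switched off by G protein-coupled receptor kinases and arrestins. Neutrophils are held in the bone marrow through CXCR4, the receptor of CXCL12, and are released into the blood through CXCR2, the receptor of CXCL1, CXCL2 and CXCL5. Formyl peptide, complement and leukotriene B4 receptors then act at the site of infection.

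The values were FPKM, that is, fragments scaled by the length of the gene and the total mapped in the library. Levels of different genes in a library can thus be set roughly side by side. Small gaps between genes still depend on the length used and on how reads were assigned. Levels are averages over all cells of a library, and fewer cells that express a gene cannot be told apart from less RNA per cell. They are levels of RNA, and the amount of receptor protein at the cell surface cannot be read from them. The spacing of low FPKM values put the depth, approximately, at 29400000 to 31900000 fragments per library. The targeted gene *Dhps* was still detected in Dhps cko, at 2.38 and 2.59 FPKM, against 3.57 and 3.11 FPKM in Dhps flox replicates 1 and 2. How completely it was deleted in these cells cannot be read from these levels. *Lyz2*, the gene of the *Lysm* locus that carries the Cre, was at 2245 and 2380 FPKM in Dhps cko and at 6874 and 6544 FPKM in Dhps flox. Neutrophil markers were abundant in every library, with *S100a9* at 24504 to 28033 FPKM and *Ly6g* at 184.8 to 241.58 FPKM. Of 12 such markers, 10 had a log2 fold change above 0 and 5 were separate and higher in Dhps cko, while 1 had an unadjusted p under 0.05, *Ly6g*. Of all genes, 20% were separate and higher in Dhps cko, and 4.72% had an unadjusted p under 0.05 and were higher.

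In both genotypes the chemoattractant receptors fell into an abundant group of 8 genes, between 23.00 and 363.90 FPKM, and a group of 2 genes under 2 FPKM that were detected in every library, *Ccrl2* and *C3ar1*. *Fpr2* was the highest, with 25.2% of the summed FPKM of the 10 genes, and stood at rank 78 of all genes listed. The log2 fold changes of these 8 genes lay between -0.04 and 0.20, and their 95% intervals together ran from -0.18 to 0.38, which is from 0.880-fold to 1.30-fold. No receptor gene passed the test, by limma over 17948 genes with Benjamini-Hochberg adjustment, where 1 gene of all tested did (0.00557%).

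**Figure D1:**
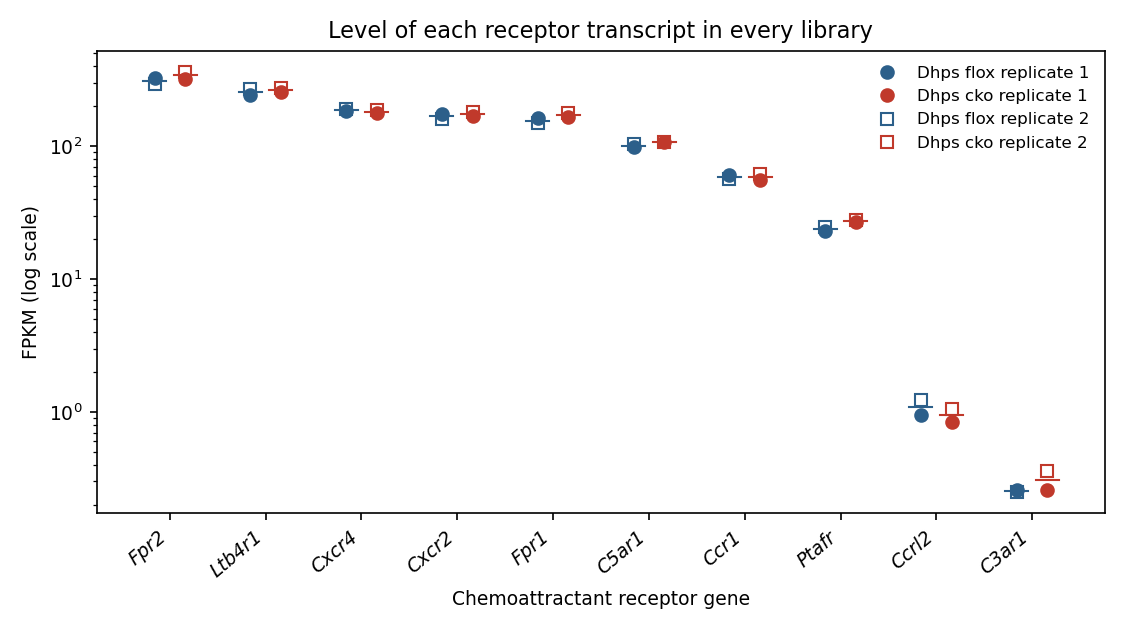
FPKM of the 10 receptor genes (log axis), ordered by mean level, in each of the 2 Dhps flox (blue) and 2 Dhps cko (red) libraries, with a short line at each genotype mean. Levels of a gene lie close together in the 4 libraries, whereas the mean of *C3ar1* lies 1158-fold below that of *Fpr2*.

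*Cxcr4*, the retention receptor (ENSMUSG00000045382), lies on the minus strand of chromosome 1 of GRCm38 from 128588199 to 128592293 and has 2 exons. It was at 179.15 and 186.31 FPKM in Dhps cko and at 183.37 and 191.96 FPKM in Dhps flox replicates 1 and 2. The genotypes overlapped, and the lowest and the highest of the 4 values came from different genotypes. The log2 fold change of *Cxcr4* was -0.04 (standard error 0.06, 95% interval -0.18 to 0.11, adjusted p = 0.93 from limma). As a fold of Dhps flox, this interval runs from 0.880 to 1.08.

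*Cxcr2*, the release receptor (ENSMUSG00000026180), lies on the plus strand of chromosome 1 from 74153989 to 74161246. It was at 170.47 and 181.34 FPKM in Dhps cko and at 175.65 and 160.07 FPKM in Dhps flox replicates 1 and 2. The 2 Dhps flox libraries enclosed the lower Dhps cko library, so the genotypes overlapped. The log2 fold change of *Cxcr2* was 0.07 (standard error 0.07, 95% interval -0.11 to 0.25, adjusted p = 0.88 from limma). Of its 50-base words, 6.68% also occurred in transcripts of other genes.

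The FPKM of *Cxcr4* exceeded that of *Cxcr2* in 4 of 4 libraries, by a geometric mean ratio of 1.08. A gap this small depends on the gene lengths used and on how reads of shared stretches were assigned. Of the 50-base words of *Cxcr2*, 6.68% also occurred in other genes, against 0% for *Cxcr4*. Such effects would be alike in every library, so the agreement of the libraries is no separate support for the order. The ratio was 1.05 and 1.03 in Dhps cko replicates 1 and 2, and 1.04 and 1.20 in Dhps flox replicates 1 and 2. Of the 4 libraries, 3 lay within a narrow range, and Dhps flox replicate 2 stood apart, with both the highest *Cxcr4* and the lowest *Cxcr2*. On the log2 scale, the ratio was 0.06 ± 0.02 (SD, n = 2) in Dhps cko and 0.16 ± 0.14 (SD, n = 2) in Dhps flox. The difference of -0.11 was within the spread between replicates (exact permutation test, two-sided p = 0.67, where 0.33 is the smallest p that 2 libraries against 2 allow). Without Dhps flox replicate 2 the difference was -0.0067, and without Dhps flox replicate 1 it was -0.21.

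**Figure D2:**
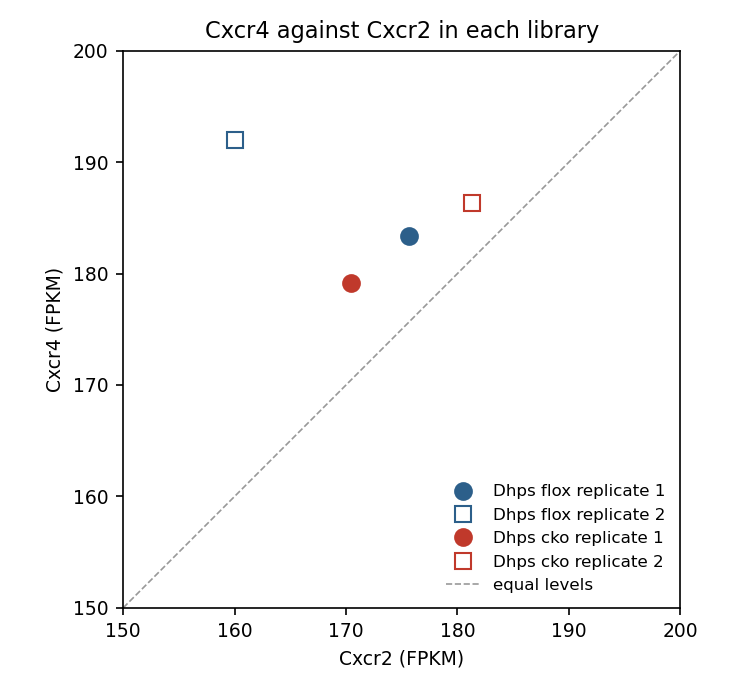
*Cxcr4* against *Cxcr2* (FPKM, both axes from 150 to 200) in each library, with the dashed line marking equal levels. All 4 libraries lie above the line, and Dhps flox replicate 2, at 160.07 and 191.96 FPKM, lies farthest from it.

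The 3758 genes whose mean reached 10 FPKM were ranked by how closely their log2 levels, each centred on its own mean, followed those of the retention and release receptors over the 4 libraries. With 4 libraries such likeness describes these libraries only. Among the 3 nearest to *Cxcr4* were *Ap2a2* and *Cltc*, at Euclidean distances of 0.0043 and 0.010 on the log2 scale. The nearest to *Cxcr2* were *Sat1*, *Hspa4* and *Hhex*, at distances of 0.0073, 0.012 and 0.015. Among the abundant receptors, *Ccr1* (0.070) and *Fpr1* (0.078) were nearest to *Cxcr2*, and *Ltb4r1* (0.11) was nearest to *Cxcr4*, while *Cxcr4* and *Cxcr2* were 0.18 apart.

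*Ccr1*, a receptor of CCL3 and other inflammatory chemokines (ENSMUSG00000025804, chromosome 9, 123962124 to 123968692), was at 56.19 and 61.36 FPKM in Dhps cko and at 60.67 and 56.31 FPKM in Dhps flox replicates 1 and 2. The 2 genotypes covered nearly the same range. The log2 fold change of *Ccr1*, 0.01 with a standard error of 0.07 (limma, adjusted p = 0.99), changed sign with the scaling, to -0.025 in TPM (a rescaling to the same total in every library). *Ccrl2*, an atypical receptor that binds chemerin and does not signal through G proteins (ENSMUSG00000043953, chromosome 9, 111054486 to 111057519), was far lower, at 0.84 and 1.06 FPKM in Dhps cko and 0.95 and 1.24 FPKM in Dhps flox replicates 1 and 2. These values stand for roughly 69.6 to 94.7 fragments per library. The log2 fold change of *Ccrl2* was -0.18, with a 95% interval from -0.78 to 0.41, and its replicates differed by 1.26-fold in Dhps cko and 1.31-fold in Dhps flox.

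*Fpr1*, the high-affinity receptor of bacterial formyl peptides (ENSMUSG00000045551), and *Fpr2*, which in mice also responds to serum amyloid A and annexin A1 (ENSMUSG00000052270), are neighbours on chromosome 17, at 17876471 to 17883940 on the minus strand and 17887824 to 17893952 on the plus strand. *Fpr1* was at 165.35 and 178.91 FPKM in Dhps cko and at 161.98 and 149.64 FPKM in Dhps flox replicates 1 and 2, and both Dhps cko libraries lay above both Dhps flox libraries. *Fpr2* was at 323.00 and 363.90 FPKM in Dhps cko and at 327.87 and 293.66 FPKM in Dhps flox replicates 1 and 2, and the genotypes overlapped. Both genes had a log2 fold change of 0.14, with standard errors of 0.07 for *Fpr1* (adjusted p = 0.77 from limma) and 0.09 for *Fpr2* (adjusted p = 0.80 from limma). With each library left out in turn, the value ran from 0.087 to 0.20 for *Fpr1* and from 0.058 to 0.23 for *Fpr2*, the low ends without Dhps cko replicate 2 or Dhps flox replicate 2. *Fpr1* and *Fpr2* shared 1 word of 50 bases between their transcripts in GENCODE M21. Of the 50-base words of *Fpr2*, 31.5% occurred in another gene, 28.4% in the gene model *Gm5966* and 6.33% in *Fpr3*. *Gm5966* was at 0.86 to 3.48 FPKM and *Fpr3* at 0.13 to 0.36 FPKM, and the level listed for *Fpr2* depends on how reads of the shared stretches were assigned.

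*C5ar1*, the receptor of the complement fragment C5a (ENSMUSG00000049130, chromosome 7, 16246743 to 16259540), was at 108.27 and 108.40 FPKM in Dhps cko and at 99.01 and 103.29 FPKM in Dhps flox replicates 1 and 2. The genotypes did not overlap, and the difference was small, with a log2 fold change of 0.10 (standard error 0.05, 95% interval -0.04 to 0.23, adjusted p = 0.78 from limma). *C3ar1*, the receptor of C3a (ENSMUSG00000040552, chromosome 6, 122847138 to 122856161), was the lowest of the 10 genes, at 0.26 and 0.36 FPKM in Dhps cko and 0.26 and 0.25 FPKM in Dhps flox replicates 1 and 2. One Dhps cko library equalled a Dhps flox library, and the values stand for roughly 31.6 to 48.2 fragments. The log2 fold change of *C3ar1* was 0.20, with a 95% interval from -0.63 to 1.03.

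*Ltb4r1*, the high-affinity receptor of leukotriene B4 (ENSMUSG00000046908, chromosome 14, 55765962 to 55768494), had the second highest RNA level of the 10 genes. It was at 257.39 and 274.29 FPKM in Dhps cko and at 244.21 and 270.42 FPKM in Dhps flox replicates 1 and 2. The genotypes overlapped, with a log2 fold change of 0.05 for *Ltb4r1* and a standard error of 0.07 (limma, adjusted p = 0.93). Without Dhps flox replicate 1 the value was -0.025, and without Dhps flox replicate 2 it was 0.12. *Ptafr*, the receptor of platelet-activating factor (ENSMUSG00000056529, chromosome 4, 132564067 to 132582683), was at 27.05 and 27.72 FPKM in Dhps cko and at 23.00 and 24.69 FPKM in Dhps flox replicates 1 and 2. Both Dhps cko libraries were above both Dhps flox libraries. *Ptafr*, with the low-level *C3ar1*, had the largest log2 fold change of the 10 genes, 0.20 (standard error 0.07, 95% interval 0.03 to 0.37), and did not pass the test over all genes (adjusted p = 0.65 from limma).

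**Figure D3:**
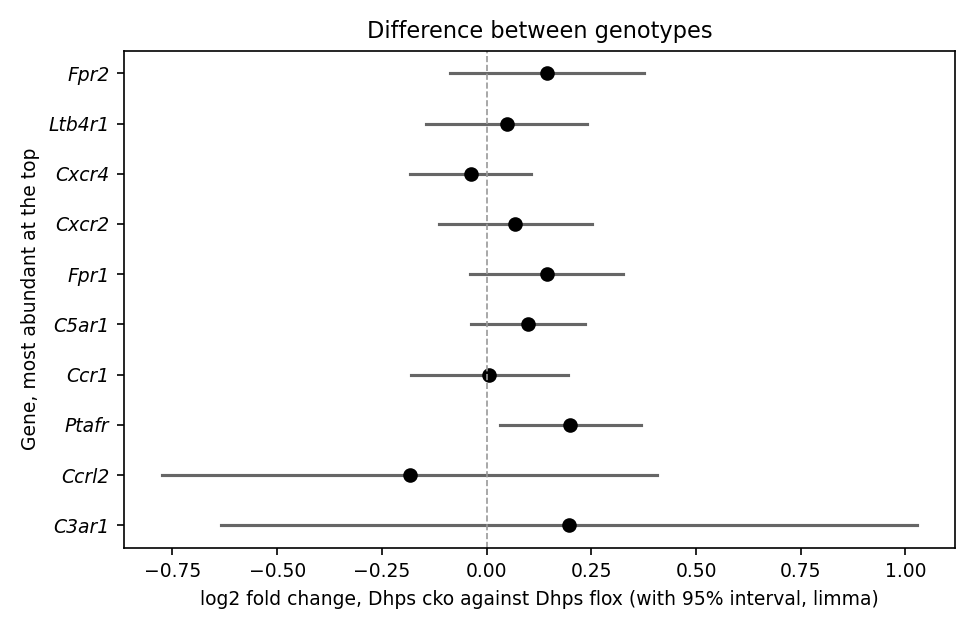
Log2 fold change of each receptor gene, Dhps cko against Dhps flox, with the 95% interval from limma (horizontal lines), ordered by level. The interval includes 0 for 9 of the 10 genes, the exception being *Ptafr*, and is widest for *Ccrl2* and *C3ar1*.

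Of the 10 receptors, 0 had an adjusted p under 0.05 by limma, and the adjusted values ran from 0.65 to 0.99. An unadjusted p under 0.05 was found for 1 of 10, *Ptafr*, against 7% of all genes tested. *Ptafr* kept such a p in 6 of 12 alternative settings and lost it in TPM, without the trend, with a replicate block and without Dhps cko replicate 1, Dhps cko replicate 2 or Dhps flox replicate 1. The genotypes did not overlap for 3 of 10, *Fpr1*, *C5ar1* and *Ptafr*, all higher in Dhps cko, against 20% of all genes in that direction, 16% in the other and 36% in either. For 7 of 10 genes, 2 libraries of the same genotype differed by a larger factor than the genotype means did. The median log2 fold change was 0.08 over the 10 receptors and 0.01 over all genes tested, and 8 of 10 receptors had a value above 0, as 52.2% of all genes did. Scaling to TPM lowered the median of the receptors to 0.05 and that of all genes to -0.02, and without Dhps cko replicate 2 the median of the receptors was 0.022.

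The order of the levels was the same in all 4 libraries. *Fpr2* stood above *Ltb4r1*, then followed *Cxcr4*, *Cxcr2*, *Fpr1*, *C5ar1*, *Ccr1*, *Ptafr*, *Ccrl2* and *C3ar1*. The ranges over libraries overlapped only between *Cxcr4* and *Cxcr2* and between *Cxcr2* and *Fpr1*, whose levels differed within a library by factors of 1.03 to 1.20 and 1.01 to 1.08. The order of these genes is not settled by such small gaps in FPKM. The smallest step without overlap was from *Ltb4r1* to *Fpr2*, at 1.09-fold to 1.34-fold. The largest was from *Ccrl2* to *Ptafr*, at 19.9-fold to 32.2-fold.

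A list of 30 other chemoattractant receptors was read beside these genes, of which 27 were in the files and 22 had a mean of at least 0.1 FPKM. They were far less abundant, and the 22 genes together reached 120.46 to 135.31 FPKM in a library, where the 10 receptors reached 1251.53 to 1383.65 FPKM. The highest was *S1pr4*, a sphingosine 1-phosphate receptor, at 53.38 to 55.74 FPKM, followed by *Gpr84*, a receptor of medium-chain fatty acids, and *C5ar2*, the second C5a receptor, at 12.04 to 13.96 FPKM. *Cxcr1*, which binds a subset of the ligands of CXCR2 and was looked up after its values were seen, was at 0 in 2 libraries and at 0.08 and 0.09 FPKM in the others. None of the 22 passed the test (0 by limma after adjustment). An unadjusted p under 0.05 was found for 3 of them, all with higher values in Dhps cko, against 4.72% of all genes in that direction. Of the 22, 8 were separate and higher in Dhps cko and 2 separate and lower, against 20% and 16% of all genes. A log2 fold change above 0 was found for 18, as for 52.2% of all genes, and the median was 0.20. *Ccr2*, the receptor that draws monocytes out of the marrow, was at 2.95 and 2.73 FPKM in Dhps cko and at 2.06 and 2.00 FPKM in Dhps flox (log2 fold change 0.46, adjusted p = 0.57 from limma). *Gpr84* was at 36.29 and 38.00 FPKM against 31.78 and 33.53 FPKM (log2 fold change 0.19, adjusted p = 0.65 from limma), with an unadjusted p under 0.05 in 6 of 12 alternative settings. *Ccr6*, named after its values were seen and known as a receptor of lymphocytes, was at 0.29 and 0.26 FPKM in Dhps cko and at 0.09 and 0.08 FPKM in Dhps flox (log2 fold change 1.02, adjusted p = 0.68 from limma).

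Among 26 tested genes for ligands and ligand synthesis, 3 ligands of CXCR2, *Cxcl1*, *Cxcl2* and *Cxcl5*, had lower values in Dhps cko. *Ppbp*, a further CXCR2 ligand gene that platelets express and that was looked up after its values were seen, overlapped between genotypes, at 0.97 and 0.43 FPKM in Dhps cko and 0.13 and 0.85 FPKM in Dhps flox (log2 fold change 0.69, standard error 0.76). *Cxcl1* was at 0.30 and 0.33 FPKM in Dhps cko and at 1.46 and 2.41 FPKM in Dhps flox replicates 1 and 2, a log2 fold change of -2.25 (standard error 0.29) that was -1.14 with a pseudocount of 1 in place of 0.1. *Cxcl2* was at 5.67 and 5.30 FPKM against 14.42 and 9.73 FPKM, a log2 fold change of -1.10 (standard error 0.20). *Cxcl5* was at 2.41 and 1.89 FPKM against 3.73 and 5.83 FPKM, a log2 fold change of -1.09 (standard error 0.25). *Saa3*, of the serum amyloid A proteins that FPR2 recognises, was at 6.30 and 4.38 FPKM against 16.14 and 16.87 FPKM, a log2 fold change of -1.63 (standard error 0.18). None of these 4 genes passed the test, with adjusted p of 0.38, 0.48, 0.51 and 0.35 in that order from limma. They were the 4 of 26 with an unadjusted p under 0.05, all lower, against 2.28% of all genes in that direction. This list, like the others here, was chosen with earlier results of these data known, so its share is no independent support. Of the 26 genes, 8 were separate and lower in Dhps cko and 3 separate and higher, against 16% and 20% of all genes, and the 4 genes were named in part for being separate. *Cxcl12*, the ligand of CXCR4, which was looked up after its values were seen, was at 1.41 and 1.65 FPKM in Dhps cko and at 1.29 and 1.34 FPKM in Dhps flox (log2 fold change 0.20, adjusted p = 0.84 from limma). The receptor genes of these ligands had log2 fold changes, in RNA, of 0.07 for *Cxcr2*, 0.14 for *Fpr2* and -0.04 for *Cxcr4*.

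The ligand genes with the highest levels were *Camp*, the gene of a cathelicidin that acts on FPR2, at 4141 to 4639 FPKM, *Anxa1*, the gene of annexin A1, at 1369 to 1627 FPKM, and *C3*, the precursor of C3a, at 476.63 to 566.21 FPKM. Handling of cells can induce immediate-early response genes, of which 0 of 13 tested had an adjusted p under 0.05 by limma. Of the 13, 6 had an unadjusted p under 0.05 and lower values in Dhps cko (2.28% of all genes), and 2 had such a p and higher values (4.72% of all genes), with summed levels of 518.29 to 521.65 FPKM in Dhps cko and 592.73 to 656.93 FPKM in Dhps flox. This list was also chosen with earlier results of these data known. The part of its genes in the lower ligand values was not tested.

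**Figure D4:**
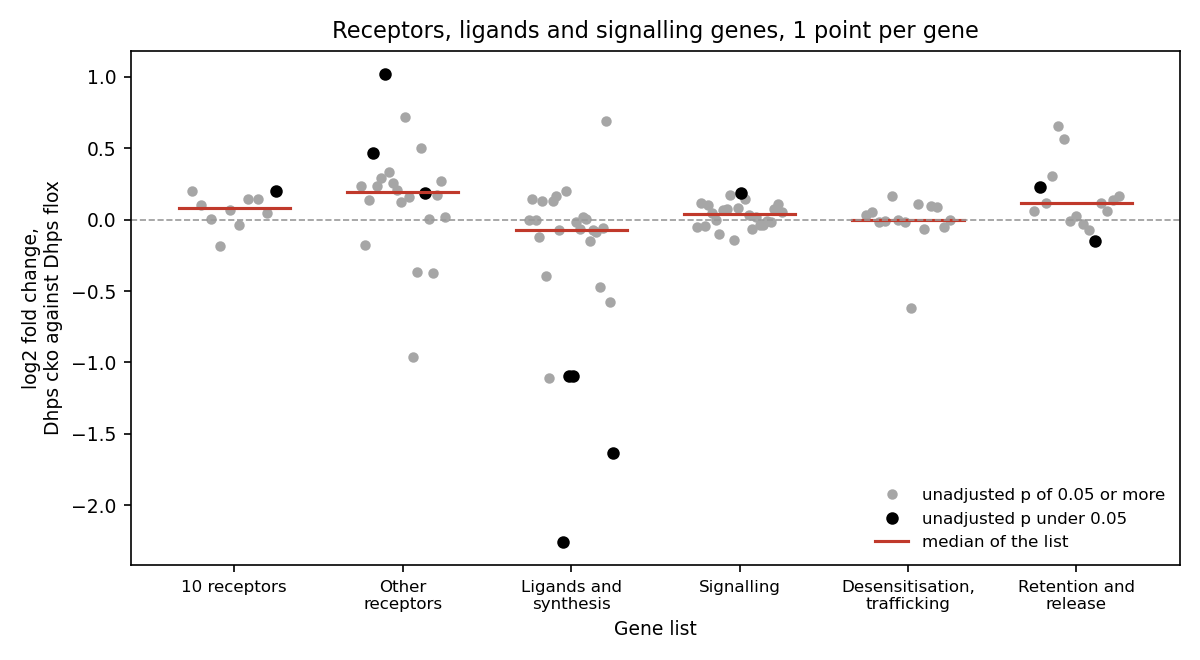
Log2 fold change, Dhps cko against Dhps flox, of each tested gene (1 point) in 6 lists, with the median of each list (red line) and genes with an unadjusted p under 0.05 in black. The 10 receptors and the signalling genes gather near 0, and the 4 black points of the ligand list are *Cxcl1*, *Saa3*, *Cxcl2* and *Cxcl5*.

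Downstream of the receptors, all 24 genes of G protein and kinase signalling were tested, and their median log2 fold change was 0.04. Of these, 8 were separate and higher in Dhps cko and 4 separate and lower, against 20% and 16% of all genes. *Rac2*, the main Rac GTPase of neutrophils, was at 542.77 to 637.48 FPKM and *Gnai2*, the inhibitory G protein subunit through which these receptors mostly signal, at 319.60 to 336.61 FPKM, with *Gnb2* next at 128.33 to 138.26 FPKM. Of the 24, 1 had an unadjusted p under 0.05, against 7% of all genes, the G protein gamma subunit gene *Gng5*, at 19.99 and 21.86 FPKM in Dhps cko and 18.42 and 18.33 FPKM in Dhps flox (log2 fold change 0.19, adjusted p = 0.71 from limma). *Gng5* had such a p in 3 of 12 alternative settings. Of 14 genes that desensitise the receptors or direct their trafficking, 0 had an unadjusted p under 0.05, and their median log2 fold change was -0.0031. *Arrb2*, the gene of an arrestin, was at 251.39 to 282.10 FPKM, and the receptor kinase genes *Grk2* and *Grk6* were at 144.58 to 158.77 and 102.02 to 113.44 FPKM.

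A list of 15 genes tied to the retention, maturation and release of neutrophils had a median log2 fold change of 0.11. Its most abundant genes were the secretory proteases *Mmp8*, at 838.86 to 1031 FPKM, and *Mmp9*, at 851.95 to 940.92 FPKM. *Cebpe*, the transcription factor of granule formation, was at 298.10 and 266.12 FPKM in Dhps cko and 234.71 and 246.82 FPKM in Dhps flox (log2 fold change 0.23, adjusted p = 0.65 from limma). Without Dhps cko replicate 1 the value of *Cebpe* was 0.14, and its unadjusted p was under 0.05 in 6 of 12 alternative settings. *Klf2*, a transcription factor that controls trafficking receptors in lymphocytes, was at 60.58 and 59.76 FPKM in Dhps cko and 67.67 and 66.01 FPKM in Dhps flox (log2 fold change -0.15, adjusted p = 0.66 from limma). Both had an unadjusted p under 0.05, 2 of 15 against 7% of all genes, and neither passed the test. For *Klf2* this p was found in 7 of 12 alternative settings, and not without the trend, with a replicate block or without Dhps cko replicate 1, Dhps cko replicate 2 or Dhps flox replicate 1. The 5 markers of early neutrophil stages all had a log2 fold change above 0, with a median of 0.55, and 0 had an unadjusted p under 0.05 by limma. Their summed levels overlapped, at 81.25 and 54.51 FPKM in Dhps cko replicates 1 and 2 and 46.28 and 56.53 FPKM in Dhps flox replicates 1 and 2, with Dhps cko replicate 1 the highest.

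Several of the receptors, among them *Ptafr*, *C5ar1* and *Ccr1*, are also expressed by monocytes and macrophages. Of 12 markers of these cells, 5 had an unadjusted p under 0.05 (4.72% of all genes) and 8 did not overlap between genotypes (20% of all genes), all higher in Dhps cko. The marker lists were also chosen with earlier results of these data known. The summed level of the 12 markers was 371.25 to 373.09 FPKM in Dhps cko and 307.92 to 309.69 FPKM in Dhps flox. None of them was at 0 in all libraries. A large part of each sum was *Ly6c2*, at 192.22 and 183.75 FPKM in Dhps cko and 157.95 and 160.82 FPKM in Dhps flox. It is a gene of Ly6C, which the sort allowed at a low level, so the sum does not measure monocytes and macrophages alone. Of 8 B cell markers, 3 had an unadjusted p under 0.05 and 5 did not overlap, all higher in Dhps cko, against the same 4.72% and 20%, with sums of 24.69 to 25.51 against 14.78 to 19.72 FPKM. The sums of the markers of T and NK cells were 7.10 to 7.44 against 4.97 to 6.75 FPKM, those of eosinophils and basophils 19.18 to 20.21 against 11.64 to 16.01 FPKM, and those of dendritic cells 4.18 to 4.70 against 2.99 to 3.73 FPKM. The erythroid sums (12.12 to 13.86 against 8.87 to 14.18 FPKM) and the platelet sums (3.47 to 4.58 against 3.13 to 6.05 FPKM) overlapped. All 5 sex-linked genes were separate, 4 lower in Dhps cko (16% of all genes) and 1 higher (20% of all genes), with the Y-linked *Ddx3y* at 2.14 and 2.47 FPKM in Dhps cko and 5.57 and 4.92 FPKM in Dhps flox, and *Xist* at 27.54 and 20.27 against 16.25 and 17.17 FPKM, so that the mix of sexes and genotype cannot be told apart. The part of these cells and of sex in the small differences of *Ptafr*, *C5ar1* and *Fpr1* was not tested.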

How the data were processed

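RNA of 4 libraries, 2 per genotype, was analysed. The authors trimmed reads with Cutadapt, aligned them with HISAT2 to mm10 and estimated FPKM per gene with StringTie and ballgown, and the deposited FPKM have 2 decimals. The annotation release was not given in the sources used here. Coordinates and 50-base words came from GENCODE M21 (GRCm38), which held 28511 of 28585 gene identifiers. Whole reads could not be recovered, so count tests were not run and depth is approximate.

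Genes averaging 0.1 FPKM or more (17948, all 10 receptors included) entered a limma 3.58.1 fit (R 4.3.3, moderated with a trend on level, no block) of log2(FPKM + 0.1), a scale that understates changes of low genes. P-values were adjusted by Benjamini-Hochberg, with a threshold of 0.05. The *Cxcr4* to *Cxcr2* ratio was compared by an exact permutation test. Scripts ran under Python 3.11.15, and the fit was first tested on simulated data.

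Receptors, lists and tests were chosen with earlier results of these data known. All receptors were named. Of the 3 genes most like *Cxcr4* in pattern, 1 is not reported here. The 3 most abundant genes were named in the lists of other receptors, ligands, signalling, desensitisation and trafficking, and retention and release. Up to 4 genes of smallest p were added from each of these lists. Their unadjusted p was under 0.05, their mean reached 1 FPKM and their genotypes were separate. Marker, sex-linked and immediate-early lists were mostly given as counts or as sums over the tested genes, and not all genes picked by this rule are named. Pseudocount, filter, scaling, trend, replicate block and threshold were varied, and each library was left out in turn.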

Additional observations from a re-analysis of the deposited data

How the results depend on the processing

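None of the 10 receptors had an adjusted p under 0.05 by limma with other pseudocounts, filters or scalings, without the trend, with a replicate block or without any 1 library, and 1 had an unadjusted p under 0.05. Over all genes, the 1 gene with an adjusted p under 0.05 became 0 with a pseudocount of 0.01, without a filter and with the replicate block, 2 after scaling to TPM, 4 with a minimum mean of 1 FPKM and 1257 with the unadjusted threshold. Without each library in turn it was 0 (0 to 0). Where 1 library was left out, the lone library of that genotype was assumed to vary like the others. The filters, the trend and the block cannot move a log2 fold change here, and under the other alternatives 5 values of the receptors changed sign. *Ccr1* was at -0.025 after scaling to TPM and at -0.0038 with size factors, and between -0.057 and 0.070 with each library left out. *Ltb4r1* was between -0.025 (without Dhps flox replicate 1) and 0.12 with each library left out. With 1 library left out at a time, *Cxcr2* ran from 0.0014 to 0.14, *Cxcr4* from -0.071 to -0.0053, *Fpr1* from 0.087 to 0.20, *Fpr2* from 0.058 to 0.23, *C5ar1* from 0.069 to 0.13, *Ccrl2* from -0.36 to -0.0080 and *C3ar1* from 0.020 to 0.37. Over all alternatives *Cxcl1* ran from -2.60 to -1.14, *Cxcl2* from -1.38 to -0.82, *Cxcl5* from -1.41 to -0.78 and *Saa3* from -1.89 to -1.38, with no adjusted p under 0.084. *Ptafr* had an unadjusted p under 0.05 in 6 of 12 alternatives and stayed between 0.15 and 0.25 on the log2 scale. With *C3ar1* at a mean under 1 FPKM, the stricter filter gave no value for it. The ratio of *Cxcr4* to *Cxcr2* differed by -0.21 to -0.0067 between genotypes with each library left out. The replicate numbers mark no shared litter or day in the labels, and the deviations of same-numbered libraries correlated with r = -0.057 over 10629 genes. With same-numbered libraries paired, chosen after the data were seen, the difference of the ratio is -0.11 by construction, with p = 1.0 in an exact permutation test within pairs in place of 0.67. With 2 pairs this test cannot reach a p under 0.05, so it decides nothing. With the replicate block 0 receptors had an adjusted p under 0.05, as without it, and *Ptafr* lost its unadjusted p under 0.05.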
